A study of Mus musculus with 15 samples.

Results

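The genes described here encode the 4 classical families of axon guidance cues and their receptors in the mouse hippocampus: Slits with Robo receptors, semaphorins with plexins and neuropilins, ephrins with Eph receptors, and netrins with Unc5 receptors. They were chosen by gene name through the array's annotation, and the rule uses no measured difference, although these families were picked with earlier results of these data known. Of 101 probes that resolved to such a gene, 99 were well above background on at least 3 of the 15 arrays, and the 2 that were not were second probes of Ntn1 and Sema3a. The 99 probes stood for 66 genes, 33 ligands and 33 receptors, out of 22864 genes on 30873 probes tested in all, where a probe without a gene symbol counts as a gene of its own. They comprised 19 semaphorins, 9 plexins, 2 neuropilins, 7 ephrins, 14 Eph receptors, 3 Slits, 4 Robo receptors, 4 netrins and 4 Unc5 receptors, and 29 of the genes had more than 1 probe.

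RNA came from the whole hippocampus of both hemispheres of male C57BL/6 mice about 2.5 months old, and each sample was hybridised to 1 single-colour Agilent array. The groups were GREmx1-cre mice (n = 4), which lack the glucocorticoid receptor GR (gene Nr3c1) where Emx1-Cre acts, MREmx1-cre mice (n = 4), which lack the mineralocorticoid receptor MR (Nr3c2), GRMREmx1-cre mice (n = 3), which lack both, and dflox mice (n = 4), the floxed controls. From the group names only, GRMREmx1-cre and dflox mice are taken to carry floxed alleles of both receptors. GREmx1-cre mice are taken to carry no floxed MR allele and MREmx1-cre mice no floxed GR allele. Full genotypes are not given in the sources used here. Emx1-Cre acts from before birth in the lineage of the excitatory neurons and astrocytes of the dorsal forebrain, so interneurons, microglia and vessel cells of the same tissue keep the receptors. The labels name replicates but do not say that each is a separate mouse, so the p-values measure the spread between these samples, which may be technical. Each genotype lay alone on 1 of the 4 slides, and slide and genotype cannot be told apart.

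Axon guidance cues are secreted or membrane-bound proteins that attract or repel growing axons through receptors on the growth cone. In the embryo they lay down the tracts of the hippocampus, among them the mossy fibres that run from dentate granule cells to CA3, and in the adult many of them stay on in neurons, where they act on spines, synapses and the placing of new granule cells. GR and MR are nuclear receptors for corticosterone that act as transcription factors on shared DNA elements, and MR, which binds the hormone more tightly, is abundant in hippocampal neurons.

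Because both receptors bind DNA at the same inverted repeat, the promoters of 4 members with small adjusted p against dflox are printed first, as the 250 bases before the start of the gene on its own strand, from RefSeq (GRCm38.p6). They are Slit2 (chr5:47982905-47983154, plus strand), Robo3 (chr9:37433176-37433425, minus strand), Sema5a (chr15:32244563-32244812, plus strand) and Epha10 (chr4:124881535-124881784, plus strand). Plxnd1 (chr6:115995006-115995255, minus strand) and Plxna3 (chrX:74328816-74329065, plus strand) were added after their values were seen, because their windows hold the hexamer. Slit1, which also had a small adjusted p, has no window in the table used. Capitals mark the hexamer AGAACA, or TGTTCT where it lies on the opposite strand.
Slit2: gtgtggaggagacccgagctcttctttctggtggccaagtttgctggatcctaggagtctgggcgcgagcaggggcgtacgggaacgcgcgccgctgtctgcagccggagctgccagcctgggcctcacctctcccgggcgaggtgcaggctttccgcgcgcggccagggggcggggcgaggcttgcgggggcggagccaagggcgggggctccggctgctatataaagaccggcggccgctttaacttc
Robo3: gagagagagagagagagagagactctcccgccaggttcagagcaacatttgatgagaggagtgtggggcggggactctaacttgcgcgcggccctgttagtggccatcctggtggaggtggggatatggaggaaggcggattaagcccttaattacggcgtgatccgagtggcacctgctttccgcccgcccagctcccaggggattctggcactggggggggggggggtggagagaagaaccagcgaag
Sema5a: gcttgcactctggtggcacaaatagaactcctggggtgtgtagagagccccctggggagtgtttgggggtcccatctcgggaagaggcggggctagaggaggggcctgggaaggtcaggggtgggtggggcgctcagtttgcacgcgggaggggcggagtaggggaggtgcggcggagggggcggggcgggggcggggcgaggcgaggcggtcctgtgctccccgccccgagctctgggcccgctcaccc
Epha10: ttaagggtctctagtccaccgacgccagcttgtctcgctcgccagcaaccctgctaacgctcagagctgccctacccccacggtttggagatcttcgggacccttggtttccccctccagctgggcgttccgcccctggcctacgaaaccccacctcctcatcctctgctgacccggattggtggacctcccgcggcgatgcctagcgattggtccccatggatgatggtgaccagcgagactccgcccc
Plxnd1: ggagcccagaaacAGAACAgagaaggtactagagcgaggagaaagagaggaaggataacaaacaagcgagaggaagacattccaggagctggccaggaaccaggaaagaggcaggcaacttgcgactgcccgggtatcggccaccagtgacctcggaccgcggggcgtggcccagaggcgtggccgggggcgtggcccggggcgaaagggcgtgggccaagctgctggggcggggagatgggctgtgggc
Plxna3: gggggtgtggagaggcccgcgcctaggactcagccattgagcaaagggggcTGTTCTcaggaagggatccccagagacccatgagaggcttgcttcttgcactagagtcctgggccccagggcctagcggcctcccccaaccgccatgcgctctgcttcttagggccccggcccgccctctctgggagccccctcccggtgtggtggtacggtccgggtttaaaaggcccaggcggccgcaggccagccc
The hexamer AGAACA, searched on both strands, begins 237 bases before the start of Plxnd1 and 199 bases before that of Plxna3, and these letters are not in the other 4 windows. RefSeq gave a window for 57 of the 66 members, with 72 windows in all, and 7 of these (9.72%) hold the hexamer, against 16.1% of all 32851 promoter windows of the same length. The full inverted repeat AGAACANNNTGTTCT was found in 0 member windows and in 3 of all windows (0.00913%). Of the 22 members that passed the test against dflox in MREmx1-cre or GRMREmx1-cre hippocampus, 18 have a window, and 2 of their 19 windows (10.5%) hold the hexamer. A match is a run of letters in this window and says nothing of binding.

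Levels are given as log2 of the processed signal minus the array's 75th percentile, so that 0 is the signal at that percentile, and levels of different probes are not compared. The 75th percentile lay between 821 and 1027 signal units, and between 29823 and 32058 spots per array were well above background. Of the members, Ntn4 was above background on 7 arrays, Epha8 and Sema3d on 12 and Ntn1 on 14, and no member spot was saturated. Nr3c1 was lower by 2.24 ± 0.0776 (log2, SE) in GREmx1-cre than in dflox hippocampus, as the label says. It differed by -1.64 in GRMREmx1-cre (adjusted p = 7.42e-07, limma) and by 0.54 in MREmx1-cre (adjusted p = 0.00165) against dflox hippocampus. Its level was higher by 0.60 in GRMREmx1-cre than in GREmx1-cre hippocampus (adjusted p = 0.000646). The Nr3c2 probe differed by -0.11 in MREmx1-cre (adjusted p = 0.48, limma), -0.31 in GRMREmx1-cre (adjusted p = 0.0394) and 0.42 in GREmx1-cre (adjusted p = 0.0212) against dflox hippocampus. It was lower by 0.73 in GRMREmx1-cre than in GREmx1-cre hippocampus (-0.73, adjusted p = 0.000383). A probe outside a deleted part would not report the deletion, and where this probe lies was not tested. A pair of arrays stood apart. MREmx1-cre replicate 2 had Ttr, a choroid plexus transcript, at -2.58, against at least 3.38 on all other arrays, and on it Sema3f (-4.50) and Sema3b (-2.06) were the lowest of their group. GREmx1-cre replicate 1 had Synpo2 at 1.82, against -5.39 to -4.15 on the others, and on it Efna2 was at -0.19, against -3.37 to -3.19 on the other arrays of its group. With both arrays left out, an alternative chosen after the data were seen, 10 members in place of 15 passed the test below in MREmx1-cre and 19 in place of 21 in GRMREmx1-cre against dflox hippocampus.

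Loss of MR, alone or with GR, was accompanied by changes in many of these genes. With loss of GR alone, the share of members past the test was near that of all genes. In MREmx1-cre against dflox hippocampus 15 of 66 members passed the test (limma, Benjamini-Hochberg adjusted p under 0.05 over all 22864 genes), 8 higher and 7 lower. That is 22.7% of members against 6.81% of all genes, of which 4.21% were higher and 2.6% lower. The 22864 include probes without a gene symbol, and 15939 have a symbol, as all members do. In GRMREmx1-cre against dflox hippocampus 21 members passed, 12 higher and 9 lower, 31.8% against 16.3% of all genes (11.4% higher and 4.84% lower). Under another background correction (normexp) 37 members and 14109 genes passed in that comparison, a smaller share of members than of all genes. In GREmx1-cre against dflox hippocampus 2 passed, 1 in each direction, 3.03% against 3.15% of all genes (2.27% higher and 0.888% lower). These 3 comparisons share the dflox arrays.

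The calls were spread over ligands and receptors. With MR lost, 5 of 33 ligands were higher and 2 lower, and 3 of 33 receptors were higher and 5 lower. With both receptors lost, 5 ligands were higher and 3 lower, and 7 receptors were higher and 6 lower. The median log2 difference over the members was 0.0815 in MREmx1-cre, 0.0273 in GRMREmx1-cre and 0.0175 in GREmx1-cre against dflox hippocampus, beside medians of 0.036, 0.033 and 0.021 over all genes. The balance of higher and lower calls depended on the scaling. With each array centred on its median, 4 members were higher and 7 lower in MREmx1-cre, and 3 were higher and 11 lower in GRMREmx1-cre against dflox hippocampus.

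**Figure D1:**
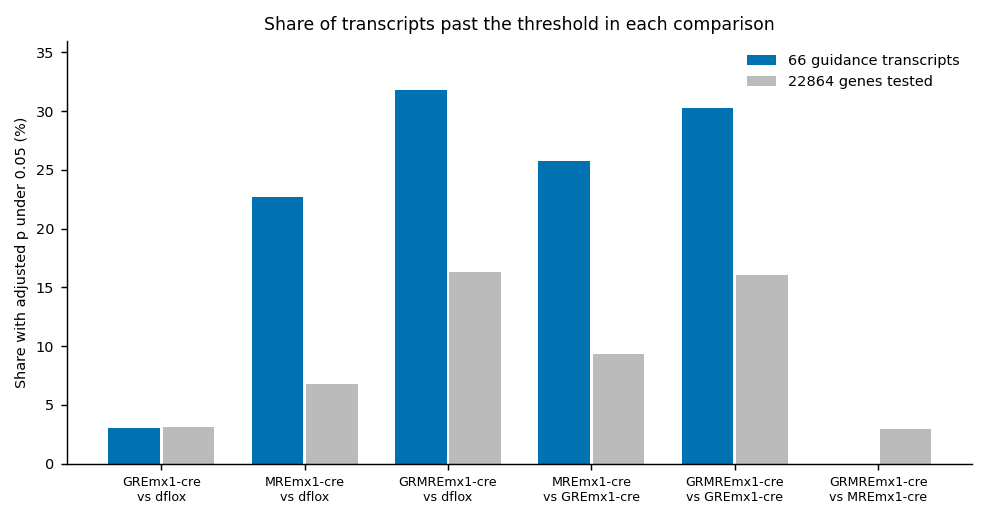
Share of genes past the test (limma, adjusted p under 0.05), in percent, for the 66 guidance members and for all 22864 genes, in each of 6 comparisons between groups. The members' bar is the taller where MR was lost and its comparison group kept MR, and stands at 0 for GRMREmx1-cre against MREmx1-cre.

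Slits are secreted repellents read by Robo receptors, and both kinds of gene were among the largest changes. Slit2 was at 2.05, 2.04, 1.89 and 1.81 on the MREmx1-cre arrays, at 2.31, 2.39 and 2.04 on the GRMREmx1-cre arrays, and at 1.34, 1.07, 1.61 and 1.14 on the dflox arrays. Every array without MR was thus higher than every control array. The difference was 0.66 ± 0.112 (SE, adjusted p = 0.00427, limma) with MR lost and 0.96 ± 0.121 (adjusted p = 0.0003) with both lost, a 1.94-fold increase. A second Slit2 probe, with differences of 0.63 and 0.85, passed as well.

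Slit1 went the other way from its paralogue. It was at -0.66, -0.56, -0.45 and -0.59 in MREmx1-cre and at -0.70, -0.71 and -0.78 in GRMREmx1-cre hippocampus, against 0.07, 0.22, -0.19 and -0.02 in dflox hippocampus, again with no overlap. It fell by 0.58 ± 0.0832 (adjusted p = 0.00146, limma) and by 0.75 ± 0.0899 (adjusted p = 0.000225). Slit3 passed only with both receptors lost, and by less, at -0.78, -0.82 and -0.83 in GRMREmx1-cre and -0.55, -0.42, -0.66 and -0.47 in dflox hippocampus (-0.29 ± 0.0563, adjusted p = 0.00444). Its MREmx1-cre arrays, at -0.68 to -0.60, overlapped the control range.

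Robo3, a divergent Robo receptor known in mouse for letting commissural axons cross the midline, had the lowest fold of all members in both comparisons. It was at -0.63, -0.43, -0.14 and -0.37 in MREmx1-cre and -0.30, -0.55 and -0.62 in GRMREmx1-cre hippocampus, whereas the dflox arrays lay at 0.80, 1.25, 0.27 and 0.68. The controls spread over nearly 1 log2 unit, and even the lowest of them was above every array without MR. The change was -1.14 ± 0.175 (adjusted p = 0.0023, limma) in MREmx1-cre and -1.24 ± 0.189 (adjusted p = 0.000944) in GRMREmx1-cre hippocampus, where the signal was 42.3% of that of the controls, and the second probe read -1.15 and -1.27.

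Robo1, a canonical Slit receptor, fell as well. It was at -0.28, -0.27, -0.36 and -0.52 in MREmx1-cre and at -0.30, -0.13 and -0.14 in GRMREmx1-cre hippocampus, against 0.13, 0.07, -0.08 and 0.14 in dflox hippocampus, so that the lowest control lay just above the GRMREmx1-cre arrays. The change was -0.42 ± 0.0695 (adjusted p = 0.00344, limma) with MR lost and -0.25 ± 0.075 (adjusted p = 0.0363) with both lost. The second call ended when any 1 of dflox replicates 1, 2 and 4 or any GRMREmx1-cre array was left out (-0.30 to -0.20), and the other Robo1 probe read -0.37 and -0.14, of which the first passed. Robo2, the other receptor of this kind in neurons, and Robo4, which is known from blood vessels, did not pass against dflox.

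**Figure D2:**
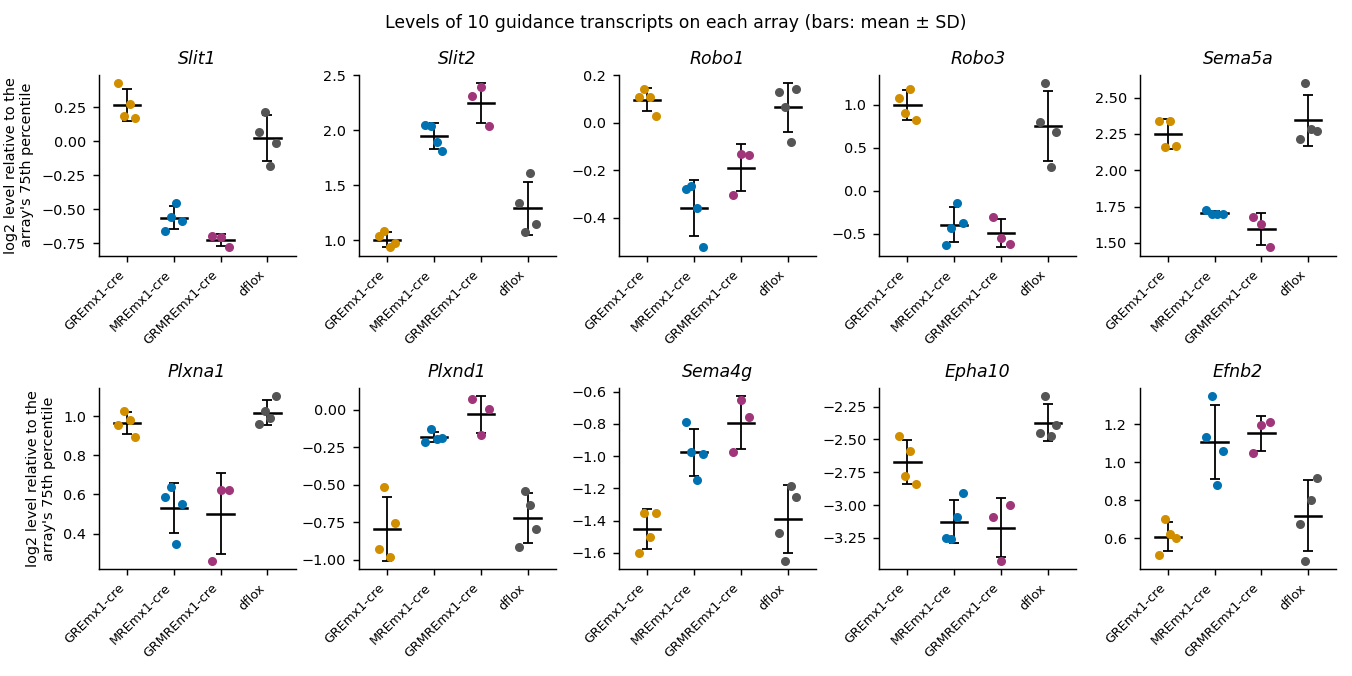
Levels of 10 members on all 15 arrays, as log2 signal relative to the array's 75th percentile, with each gene on its own axis. Points are arrays and bars are the group mean ± SD (n = 4, 4, 3 and 4 for GREmx1-cre, MREmx1-cre, GRMREmx1-cre and dflox). In Slit1, Slit2 and Robo3 the 7 arrays without MR stand clear of the 4 dflox arrays.

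Among the semaphorins, guidance cues that signal through plexins, Sema5a had the largest fall. This transmembrane semaphorin, known in mouse for limiting synapse formation on adult-born granule cells, was at 1.73, 1.70, 1.70 and 1.70 in MREmx1-cre and 1.68, 1.63 and 1.47 in GRMREmx1-cre hippocampus, against 2.21, 2.60, 2.29 and 2.27 in dflox hippocampus. The groups did not overlap, and the 4 MREmx1-cre arrays lay within 0.03 of each other. The change was -0.64 ± 0.0819 (adjusted p = 0.000865, limma) with MR lost and -0.75 ± 0.0884 (adjusted p = 0.000203) with both lost. A second, dimmer Sema5a probe did not share it, reading 0.03 and -0.05, and with the mean of the probes in place of the brightest the calls ended.

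Sema4g, a class 4 transmembrane semaphorin, was higher, at -0.97, -0.65 and -0.75 in GRMREmx1-cre against -1.48, -1.65, -1.18 and -1.25 in dflox hippocampus (0.60 ± 0.122, adjusted p = 0.00535, limma). The MREmx1-cre arrays, at -0.79, -0.98, -1.15 and -0.99, were all above the controls as well. That difference of 0.42 ± 0.113 (adjusted p = 0.0453) passed only with all arrays or without 1 of dflox 3, GREmx1-cre 1, MREmx1-cre 3 and GRMREmx1-cre 1 (the numbers are replicates), over a range of 0.33 to 0.48. Sema4c, another member of class 4, passed with both receptors lost (0.38 ± 0.114, adjusted p = 0.0403). It no longer did so without dflox 1 or 4, GREmx1-cre 4, MREmx1-cre 1 or GRMREmx1-cre 1 or 3 (0.25 to 0.45).

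Plexins are the main semaphorin receptors, and they moved in both directions. Plxnd1, the receptor of Sema3e, was at -0.21, -0.13, -0.19 and -0.19 in MREmx1-cre and 0.07, -0.17 and 0.01 in GRMREmx1-cre hippocampus, against -0.92, -0.54, -0.64 and -0.79 in dflox hippocampus. No array overlapped. It was higher by 0.54 ± 0.104 (adjusted p = 0.00862, limma) and by 0.69 ± 0.112 (adjusted p = 0.00143). Its ligand Sema3e, on 3 probes of which the brightest is given, averaged 1.69 ± 0.103 in MREmx1-cre (SD, n = 4), 1.52 ± 0.0768 in GRMREmx1-cre (n = 3) and 1.75 ± 0.0946 in dflox hippocampus (n = 4) and did not pass.

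Plxna1, a partner of neuropilins and class 6 semaphorins, was lower on its brightest probe. It was at 0.59, 0.64, 0.35 and 0.55 in MREmx1-cre and 0.26, 0.62 and 0.62 in GRMREmx1-cre hippocampus, against 0.96, 1.02, 0.99 and 1.10 in dflox hippocampus (-0.49 ± 0.0839, adjusted p = 0.00447, and -0.52 ± 0.0906, adjusted p = 0.00219, limma). The probes of this gene disagree, so its direction is uncertain. The second probe read -0.0025 with MR lost and 0.29 with both lost, and the difference with both lost passed in the opposite direction.

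Further plexins were higher where both receptors were lost. Plxnb1, a class 4 semaphorin receptor, was at 1.01, 1.04 and 1.04 in GRMREmx1-cre against 0.77, 0.76, 0.78 and 0.74 in dflox hippocampus (0.27 ± 0.0505, adjusted p = 0.00329, limma). Plxna3, with Plxna4 known in mouse as a neuropilin partner that shapes hippocampal axons, was higher by 0.32 ± 0.0759 (adjusted p = 0.0127) and lost the call without GRMREmx1-cre replicate 3 (0.28 to 0.37). Plxna4 passed with MR lost (0.27 ± 0.0705, adjusted p = 0.0413) and with both lost (0.24 ± 0.0705, adjusted p = 0.0415), but its spot on MREmx1-cre replicate 1 was an outlier and was dropped. The call with MR lost held only without 1 of 6 arrays (dflox 2, GREmx1-cre 3 and 4, MREmx1-cre 1, GRMREmx1-cre 1 and 2; 0.23 to 0.31), and that with both lost ended without 1 of 8 (dflox 1, 3 and 4, GREmx1-cre 2, MREmx1-cre 3 and each GRMREmx1-cre array; 0.19 to 0.27). Plxna2, the receptor known for confining mossy fibres in mouse, averaged 2.50 ± 0.0705 in MREmx1-cre, 2.50 ± 0.116 in GRMREmx1-cre and 2.45 ± 0.0887 in dflox hippocampus (SD) and did not pass.

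Neuropilins bind class 3 semaphorins and signal with A-type plexins. Nrp1 was at -0.87, -0.97 and -0.92 in GRMREmx1-cre and -0.38, -0.75, -0.69 and -0.43 in dflox hippocampus, below all controls (-0.36 ± 0.0926, adjusted p = 0.0197, limma). Its second probe, at -0.55, passed as well. The call of the first ended without dflox 1 or 4 or GRMREmx1-cre 2 or 3 (-0.42 to -0.30). Nrp2 averaged 2.53 ± 0.0906 in GRMREmx1-cre and 2.60 ± 0.0204 in dflox hippocampus (SD) and did not pass, and nor did any class 3 semaphorin against dflox.

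Ephrins are membrane-bound ligands of the Eph receptor tyrosine kinases, and both partners signal into their own cell. Epha10, an Eph receptor without kinase activity, had the largest fall in this family. It was at -3.25, -3.26, -3.09 and -2.90 in MREmx1-cre and -3.09, -3.42 and -3.00 in GRMREmx1-cre hippocampus, against -2.45, -2.17, -2.48 and -2.39 in dflox hippocampus, with no overlap. The change was -0.75 ± 0.117 (adjusted p = 0.00248, limma) with MR lost and -0.80 ± 0.126 (adjusted p = 0.00119) with both lost. The probe was dim, and under another background correction (normexp), which moved the median of all genes by 0.412 in the second comparison, its value there was 0.49 (adjusted p = 0.174).

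Efnb2, a B-class ephrin that acts at hippocampal synapses, was higher. It was at 1.13, 1.35, 0.88 and 1.06 in MREmx1-cre and 1.05, 1.20 and 1.21 in GRMREmx1-cre hippocampus, against 0.67, 0.48, 0.80 and 0.92 in dflox hippocampus. The GRMREmx1-cre arrays lay above all controls, while 1 MREmx1-cre array lay below the highest control. The difference with both lost was 0.43 ± 0.112 (adjusted p = 0.0195, limma; lost without GRMREmx1-cre 2 or 3, 0.35 to 0.50). With MR lost it was 0.39 ± 0.104 (adjusted p = 0.0426), and it passed only with all arrays or without dflox 4, GREmx1-cre 1 or MREmx1-cre 3 (0.31 to 0.46). Efnb3, its B-class relative, was at 3.84, 3.68, 3.83 and 3.89 in MREmx1-cre against 3.52, 3.58, 3.65 and 3.57 in dflox hippocampus (0.23 ± 0.0588, adjusted p = 0.0338; lost without dflox 1, 2 or 4 or MREmx1-cre 1, 3 or 4, 0.21 to 0.28), and the GRMREmx1-cre arrays, at 3.52 or above, overlapped the controls.

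Of the EphB receptors, which bind these ligands, Ephb3 was higher with MR lost (1.16, 1.49, 1.46 and 1.53 in MREmx1-cre against 0.86, 1.23, 1.02 and 0.72 in dflox hippocampus). The groups overlapped at 1 array, the difference was 0.45 ± 0.106 (adjusted p = 0.0241, limma), and it was lost without dflox 1 or 4 or MREmx1-cre 2, 3 or 4 (0.37 to 0.54). With both lost it was 0.39 ± 0.114 (adjusted p = 0.0335; lost without dflox 1 or 4 or any GRMREmx1-cre array, 0.32 to 0.49). Ephb1, a kinase-active EphB receptor, averaged 1.02 ± 0.00929 in GRMREmx1-cre and 0.74 ± 0.122 in dflox hippocampus (SD), a difference of 0.29 ± 0.063 (adjusted p = 0.00844) that held whichever array was left out. Ephb2, which in mouse is concentrated at hippocampal synapses, averaged -0.01 ± 0.0721 in MREmx1-cre, -0.04 ± 0.0171 in GRMREmx1-cre and 0.07 ± 0.16 in dflox hippocampus and did not pass. Epha4, a widely used ephrin receptor of the hippocampus, averaged 4.17 ± 0.0238 in MREmx1-cre, 4.04 ± 0.122 in GRMREmx1-cre and 4.23 ± 0.231 in dflox hippocampus and did not pass either.

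Netrins attract axons through Dcc and repel them through Unc5 receptors. Ntn3 was at -0.78, -0.77, -0.59 and -0.82 in MREmx1-cre and -0.72, -0.78 and -0.78 in GRMREmx1-cre hippocampus, against -0.94, -0.98, -1.05 and -1.03 in dflox hippocampus. The groups did not overlap, and the differences were small, 0.26 ± 0.0525 (adjusted p = 0.0113, limma) and 0.24 ± 0.0567 (adjusted p = 0.0126; lost without GRMREmx1-cre replicate 1, 0.22 to 0.26). Ntn1, the best known netrin, was dim and did not pass, at -5.24 ± 0.359 in MREmx1-cre, -5.01 ± 0.131 in GRMREmx1-cre and -5.09 ± 0.147 in dflox hippocampus (SD).

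Unc5c, a repulsive netrin receptor, was lower in both genotypes that lack MR. It was at 0.38, 0.23, 0.07 and 0.10 in MREmx1-cre and -0.14, 0.15 and 0.30 in GRMREmx1-cre hippocampus, against 0.84, 0.60, 0.43 and 0.76 in dflox hippocampus, below every control. The change was -0.47 ± 0.109 (adjusted p = 0.0237, limma; lost without dflox 1 or 4 or MREmx1-cre 3 or 4, -0.54 to -0.405) with MR lost and -0.55 ± 0.118 (adjusted p = 0.00692) with both lost. Unc5a, Unc5b and Unc5d did not pass.

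**Figure D3:**
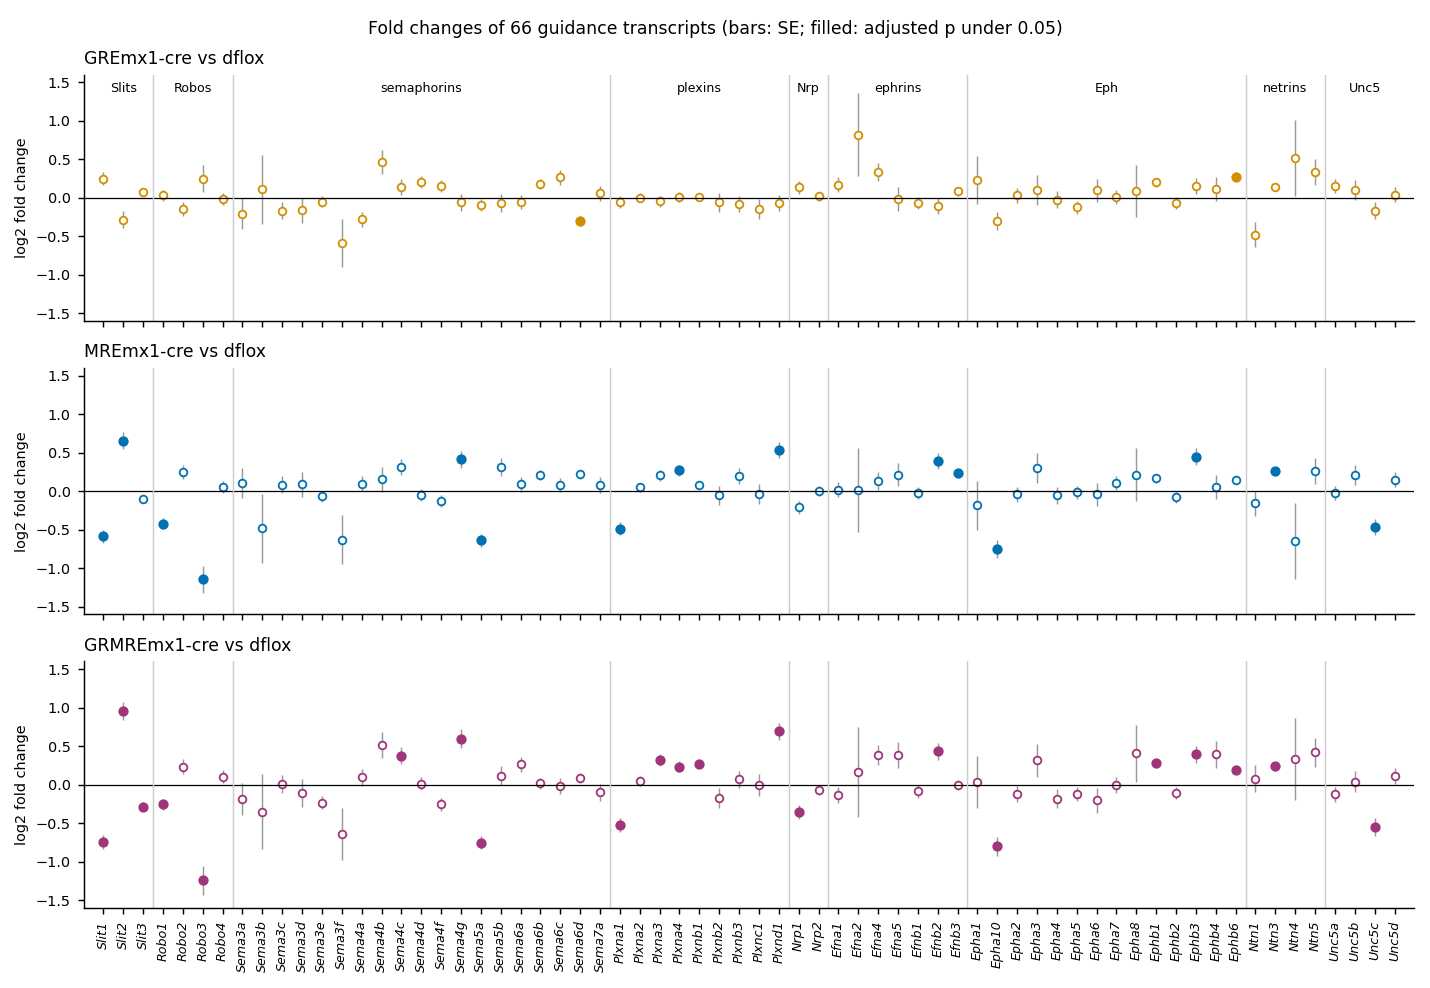
Log2 difference from dflox for each of the 66 members in GREmx1-cre, MREmx1-cre and GRMREmx1-cre hippocampus, with bars for the standard error from limma and filled points for adjusted p under 0.05. The 3 comparisons share the 4 dflox arrays. Slit2 and Plxnd1 lie highest, and Robo3 lowest, among the filled points of the MREmx1-cre and GRMREmx1-cre panels.

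Loss of GR alone gave 2 calls. Ephb6, an EphB receptor without kinase activity, was at 0.35, 0.36, 0.34 and 0.48 in GREmx1-cre against 0.15, 0.14, 0.08 and 0.07 in dflox hippocampus, a difference of 0.28 ± 0.0536 (adjusted p = 0.018, limma) whose call ended without dflox 3 or without GREmx1-cre 4 (0.24 to 0.29). It was also higher with both receptors lost, at 0.38, 0.35 and 0.19 (0.19 ± 0.0579, adjusted p = 0.0377), a call that ended without any 1 of the dflox arrays or GRMREmx1-cre 1 or 2 (0.16 to 0.25). Sema6d, a class 6 semaphorin, was at 1.33, 1.26, 1.41 and 1.26 in GREmx1-cre against 1.52, 1.68, 1.73 and 1.54 in dflox hippocampus. Its groups did not overlap, the change was -0.30 ± 0.0611 (adjusted p = 0.0212), and the call was lost without dflox 2 or 3 or GREmx1-cre 2 or 4 (-0.33 to -0.26). Efna2 read 0.82 in this comparison and 0.042 without GREmx1-cre replicate 1, and did not pass.

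The loss of MR can be read in 2 sets of arrays that share none, MREmx1-cre against dflox and GRMREmx1-cre against GREmx1-cre. In the second, 20 members passed, 10 in each direction, which is 30.3% of members against 16.1% of all genes (9.23% higher and 6.91% lower). Under normexp 37 members and 14028 genes passed in this second comparison, a smaller share of members than of all genes. In both sets 11 members passed, which is 73.3% of the 15 and 55.0% of the 20, and all 11 had the same direction in both. Efnb2, Plxnd1, Sema4g and Slit2 were higher, and Epha10, Plxna1, Robo1, Robo3, Sema5a, Slit1 and Unc5c were lower. Over all genes 848 passed in both in the same direction, 54.5% and 23.0% of the 2 lists, and 31 passed in opposite directions. The sign was shared by 53 of 66 members (80.3%) and by 61.3% of all genes. Across the 66 members the differences of the 2 sets correlated with r = 0.794 (rho = 0.759), against r = 0.378 across all genes. This describes genes measured on the same arrays, which are not independent replicates. The 2 tests also share 1 estimate of each gene's spread from the fit over all arrays, so their calls are not independent.

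**Figure D4:**
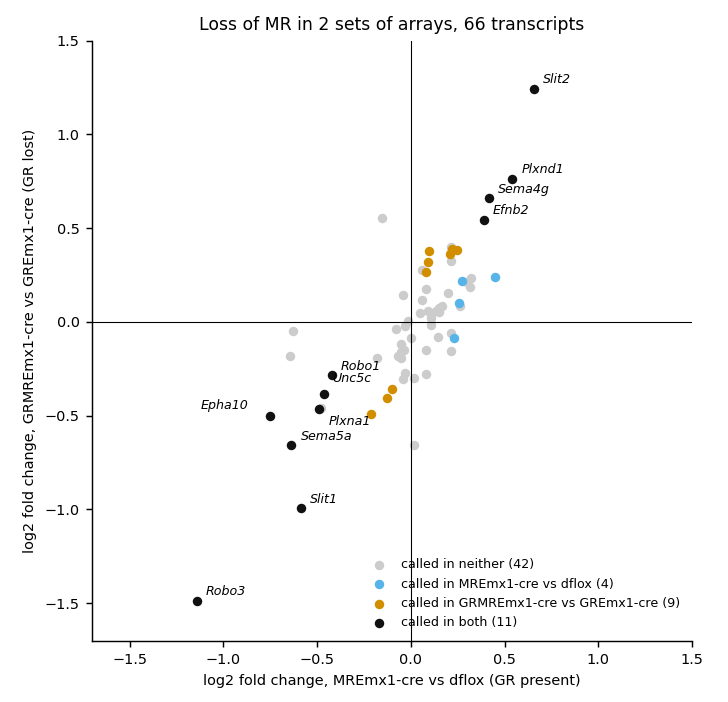
Log2 difference on loss of MR for the 66 members, with GR present (MREmx1-cre minus dflox, horizontal) and with GR lost (GRMREmx1-cre minus GREmx1-cre, vertical), from sets of arrays that share none. The 11 labelled members passed the test in both, and they lie in the quadrants of equal sign.

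With GR already lost, Slit2 was at 2.31, 2.39 and 2.04 in GRMREmx1-cre against 1.03, 1.08, 0.93 and 0.97 in GREmx1-cre hippocampus, a 2.37-fold difference (1.24 ± 0.121, adjusted p = 7.93e-05, limma). Slit1 was at -0.70, -0.71 and -0.78 in GRMREmx1-cre against 0.43, 0.19, 0.27 and 0.17 in GREmx1-cre hippocampus (-0.99 ± 0.0899, adjusted p = 4.73e-05). Robo3 was at -0.30, -0.55 and -0.62 in GRMREmx1-cre against 1.08, 0.90, 1.19 and 0.82 in GREmx1-cre hippocampus (-1.49 ± 0.189, adjusted p = 0.000383). For all 3 genes the groups did not overlap, and the second probes of Slit2 (1.33) and Robo3 (-1.52) passed too. Sema5a differed by -0.66 (adjusted p = 0.000527), with its second probe at -0.18, and Plxnd1 by 0.76 (adjusted p = 0.0009). Sema4g (0.66, adjusted p = 0.00341), Efnb2 (0.54, adjusted p = 0.00631), Plxna3 (0.36, adjusted p = 0.00692) and Plxnb1 (0.26, adjusted p = 0.00412) were higher, and Nrp1 (-0.49, adjusted p = 0.00374), Plxna1 (-0.46, adjusted p = 0.00473, second probe 0.02) and Slit3 (-0.36, adjusted p = 0.00129) lower.

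Some members passed here and not in MREmx1-cre or GRMREmx1-cre against dflox hippocampus. Sema6d was higher by 0.39 (adjusted p = 0.00214) at 1.62, 1.68 and 1.81 in GRMREmx1-cre against 1.33, 1.26, 1.41 and 1.26 in GREmx1-cre hippocampus. Sema4f, a class 4 semaphorin, was lower by 0.40 (-0.40, adjusted p = 0.00632), averaging 0.59 ± 0.0239 in GRMREmx1-cre and 0.99 ± 0.0735 in GREmx1-cre hippocampus (SD). Robo2 was higher by 0.38 (adjusted p = 0.0193; lost without GREmx1-cre 3 or GRMREmx1-cre 1 or 3, 0.32 to 0.47) with its second probe at -0.01, Sema4a by 0.38 (adjusted p = 0.032; lost without GREmx1-cre 1 or 3 or GRMREmx1-cre 2 or 3, 0.29 to 0.51) and Sema6a by 0.32 (adjusted p = 0.0463) with its second probe at -0.13. The Sema6a call held only without 1 of dflox 3 and 4, GREmx1-cre 3, MREmx1-cre 2 and 3 and GRMREmx1-cre 1 (0.21 to 0.38), and the gene lies 35 tested genes from Nr3c1 on its chromosome. Of the remaining calls, Epha10 (-0.50, adjusted p = 0.0177) was lost without GRMREmx1-cre 2 (-0.59 to -0.38), Robo1 (-0.29, adjusted p = 0.0219) without GREmx1-cre 2 or GRMREmx1-cre 1 (-0.31 to -0.23), and Unc5c (-0.39, adjusted p = 0.0418) without dflox 2, any GREmx1-cre array, MREmx1-cre 2 or GRMREmx1-cre 1 or 2 (-0.49 to -0.27).

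Adding the loss of GR to the loss of MR moved no member past the test. In GRMREmx1-cre against MREmx1-cre hippocampus 0 of 66 members passed (limma), against 2.98% of all genes. The nearest were Efnb3 (-0.24, adjusted p = 0.0667), Plxnb1 (0.19, adjusted p = 0.07) and Slit3 (-0.19, adjusted p = 0.101). Efnb3 passed with arrays centred on their median (-0.30, adjusted p = 0.0372) and without MREmx1-cre replicate 2 (-0.28, adjusted p = 0.039), and Plxnb1 with quantile normalization (0.21, adjusted p = 0.039).

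The interaction, that is whether the effect of losing MR differs with GR lost, also passed for 0 members (limma), against 1.29% of all genes. Slit2 had an interaction of 0.59 (adjusted p = 0.101), Sema6b -0.37 (adjusted p = 0.086) and Efnb3 -0.32. Without MREmx1-cre replicate 1 the interaction passed for Ntn1 (0.87, adjusted p = 0.0448) and Sema6b (-0.43, adjusted p = 0.0281). Hence no member's response to the loss of MR was shown to depend on GR in these 15 arrays.

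The single losses were also set against each other. In MREmx1-cre against GREmx1-cre hippocampus 17 members passed, 9 higher and 8 lower, 25.8% against 9.33% of all genes (4.92% higher and 4.42% lower). Slit2 (0.94, adjusted p = 0.000357, limma), Plxnd1 (0.61, adjusted p = 0.00293), Sema6d (0.52, adjusted p = 0.000346), Efnb2 (0.50, adjusted p = 0.0104) and Robo2 (0.40, adjusted p = 0.0168) were higher where MR was lost. Robo3 (-1.39, adjusted p = 0.000506), Slit1 (-0.83, adjusted p = 0.000122), Sema5a (-0.54, adjusted p = 0.00143), Robo1 (-0.45, adjusted p = 0.00158) and Plxna1 (-0.43, adjusted p = 0.00688) were lower, and these 10 calls held whichever array was left out. Those of Efnb2, Robo2 and Sema5a were lost under an alternative in the processing other than normexp. The second probes of Robo2 and Sema5a overlapped between MREmx1-cre and GREmx1-cre hippocampus. The Sema6d difference joins opposite placements, with 1.80 to 1.90 in MREmx1-cre and 1.26 to 1.41 in GREmx1-cre hippocampus on either side of 1.52 to 1.73 in dflox hippocampus. The other 7 of the 17 lost the call without at least 1 array. Sema4g (0.48, adjusted p = 0.0196; 0.41 to 0.53 over the arrays left out) did so without GREmx1-cre 1 or MREmx1-cre 1, Epha10 (-0.46, adjusted p = 0.0287; -0.53 to -0.39) without GREmx1-cre 1 or 3 or MREmx1-cre 1 or 2, Nrp1 (-0.35, adjusted p = 0.0237; -0.39 to -0.31) without GREmx1-cre 1 or 4 or MREmx1-cre 2 or 3, and Sema4a (0.38, adjusted p = 0.0319; 0.30 to 0.42) without GREmx1-cre 1, 3 or 4 or MREmx1-cre 1, 2 or 4. Plxna3 (0.25, adjusted p = 0.0422; 0.21 to 0.29) kept it only without dflox 3, GREmx1-cre 2 or 3 or GRMREmx1-cre 1 or 3, Plxna4 (0.26, adjusted p = 0.0427; 0.20 to 0.30) only without dflox 2, GREmx1-cre 3, MREmx1-cre 1 or GRMREmx1-cre 1 or 2, and Sema4f (-0.27, adjusted p = 0.0422; -0.32 to -0.24) only without dflox 3 or 4 or MREmx1-cre 4. A dim Plxna4 probe went the other way, at -4.30 to -4.05 in MREmx1-cre and -4.24 to -3.92 in GREmx1-cre hippocampus. With both arrays that stand apart left out, 8 members passed, Slit2, Plxnd1 and Sema6d among the higher ones.

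Of the 66 members, each read on its probe of highest mean, 39 passed in none of these comparisons. They include every A-class ephrin measured (Efna1, Efna2, Efna4, Efna5), the EphA receptors other than Epha10, all 6 class 3 semaphorins, Nrp2, Robo4, Ntn1, Ntn4 and Ntn5, and the Unc5 receptors other than Unc5c. Against dflox their differences on these probes ran from -0.64 (Ntn4) to 0.32 (Sema5b) in MREmx1-cre and from -0.64 (Sema3f) to 0.51 (Sema4b) in GRMREmx1-cre hippocampus. Differences of that size passed elsewhere in these families, so a member that did not pass is not shown to be unaffected. Other probes of these genes can differ from the one read. A dimmer Sema6c probe was at -3.29, -3.36 and -3.33 in GRMREmx1-cre against -4.25, -4.07, -4.11 and -4.21 in dflox hippocampus.

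Genes that work with these families were described from 2 further lists. Of 35 related cues and co-receptors tested, 3 passed in MREmx1-cre hippocampus (all higher, 8.57% against 6.81% of all genes), 7 in GRMREmx1-cre hippocampus (5 higher and 2 lower, 20.0% against 16.3%) and 0 in GREmx1-cre against dflox hippocampus, shares near those of all genes. Dcc, the attractive netrin receptor, was higher by 0.55 ± 0.0655 (adjusted p = 0.000525, limma) with MR lost and by 0.62 (adjusted p = 0.00018) with both lost, and Chl1, an adhesion molecule that works with neuropilin, by 0.30 (adjusted p = 0.0109) and 0.35. Rtn4rl1, a Nogo receptor relative, was lower with both lost (-0.48, adjusted p = 0.00297).

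Of 56 signalling effectors tested, 7 passed with MR lost, 5 higher and 2 lower (12.5% against 6.81% of all genes), and 13 with both lost, 6 higher and 7 lower (23.2% against 16.3%). In GREmx1-cre hippocampus 2 passed (3.57% against 3.15%), Gipc1 and Abl1. Rnd1, a small GTPase that binds plexins, was higher by 0.40 (adjusted p = 0.0121, limma) and 0.43. Kalrn, an exchange factor for Rac at spines that EphB receptors act through, was lower by 0.34 with MR lost (-0.34, adjusted p = 0.0296; lost without dflox 1 or 2 or any MREmx1-cre array, -0.41 to -0.26) and by 0.56 with both lost (-0.56, adjusted p = 0.00151). With GR lost, Gipc1, a scaffold of Sema4c and neuropilin, was higher by 0.51 ± 0.0669 (adjusted p = 0.00246), and it lies 32 tested genes from Nr3c2 on its chromosome. Abl1, a tyrosine kinase that acts with Robo receptors, was lower by 0.17 (-0.17, adjusted p = 0.0447) and kept the call in only 3 of the 15 fits with 1 array left out (-0.20 to -0.15), and the mean of its probes read 0.023.

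Markers of the hippocampal cell types moved with the same groups, and in whole tissue fewer cells of a type and less RNA per cell cannot be told apart. Beside each count, all genes stood at 4.21% higher and 2.6% lower in MREmx1-cre, and at 11.4% higher and 4.84% lower in GRMREmx1-cre against dflox hippocampus. Of 13 dentate granule cell markers tested, 2 were higher and 5 lower in MREmx1-cre, and 2 higher and 7 lower in GRMREmx1-cre hippocampus. Their mean deviation per array from the mean of all arrays was 0.165 to 0.495 in GREmx1-cre, -0.264 to -0.116 in MREmx1-cre, -0.557 to -0.273 in GRMREmx1-cre and 0.0106 to 0.432 in dflox hippocampus.

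Of 8 CA2 markers, 5 were lower in MREmx1-cre and 6 in GRMREmx1-cre hippocampus, with means of -0.495 to -0.23 in MREmx1-cre, -0.482 to -0.256 in GRMREmx1-cre and 0.24 to 0.461 in dflox hippocampus. Of 8 CA3 markers, 2 were lower in MREmx1-cre and 3 in GRMREmx1-cre hippocampus, with means of -0.221 to -0.149 in MREmx1-cre, -0.224 to -0.03 in GRMREmx1-cre and -0.0236 to 0.188 in dflox hippocampus. Of 8 CA1 markers, 1 was higher and 1 lower in MREmx1-cre, where the means overlapped those of dflox hippocampus, and 2 were higher and 2 lower in GRMREmx1-cre hippocampus, with means of -0.289 to -0.204 in GRMREmx1-cre and -0.085 to 0.177 in dflox hippocampus. By these means all of the pyramidal and granule cell lists lay below the controls on every GRMREmx1-cre array, CA3 only narrowly (-0.03 against -0.0236). The pattern depends on the summary. By log2 of the summed signal, the dentate (5.188 to 5.515 against 5.294 to 5.724) and CA1 lists (6.751 to 7.065 against 6.792 to 7.035) overlapped between GRMREmx1-cre and dflox hippocampus. The CA2 and CA3 lists did not.

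Of 13 microglial markers, 6 were higher in MREmx1-cre and 10 in GRMREmx1-cre hippocampus, with means of 0.0711 to 0.159 in MREmx1-cre, 0.177 to 0.343 in GRMREmx1-cre and -0.251 to -0.108 in dflox hippocampus. Smaller shifts without overlap were seen in 3 other lists. Endothelial means were 0.0149 to 0.2 in GRMREmx1-cre and -0.0754 to -0.00226 in dflox hippocampus, with 0 of 10 markers past the test (limma). Oligodendrocyte progenitor means were 0.022 to 0.171 in MREmx1-cre, 0.000796 to 0.161 in GRMREmx1-cre and -0.171 to -0.00742 in dflox hippocampus, with 1 of 7 markers higher in each. Neocortical means were 0.134 to 0.3 in GRMREmx1-cre and -0.142 to -0.0277 in dflox hippocampus, with 1 of 7 markers higher. The means of interneuron, astrocyte and mature oligodendrocyte markers overlapped between each genotype and dflox. By log2 of the summed signal the interneuron list did not overlap in GRMREmx1-cre (7.183 to 7.24) against dflox hippocampus (7.386 to 7.45). The striatal list, whose means overlapped, was lower by this sum in MREmx1-cre (2.974 to 3.44) and GRMREmx1-cre (2.925 to 3.234) than in dflox hippocampus (3.538 to 3.649). The neocortical list was higher by it in MREmx1-cre (2.505 to 2.78) and GRMREmx1-cre (2.632 to 2.743) than in dflox hippocampus (2.343 to 2.452). The part of these cell types and regions in the changes of Slit1, Slit2, Robo3 and the other members was not tested.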

How the data were processed

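Each of the 15 samples was 1 single-colour (Cy3) Agilent array, read with Agilent Feature Extraction, for which the submitters' processing notes give version 12.0. The deposited scanner files give, per the file headers, a processed signal intensity for each spot, already background-subtracted by that software, a median signal and a background signal intensity, and flags (other values) for spots well above background, saturated or outlying. The authors' deposited value table of untransformed intensity equals the processed signal at 45018 of 45018 spots, so it adds no further normalization.

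From these, control and 1281 outlying spots were left out, log2 of the processed signal was taken, each array's 75th percentile was subtracted, and spots of a probe were averaged. A probe was kept if 3 or more arrays had it well above background, and each gene was given by its probe of highest mean. Of 41174 probes, 28223 had 1 symbol through RefSeq (GRCm38.p6) and 12951 had none, and the array design carries older names. A group-means model over all 15 arrays was fitted with limma 3.58.1 in R 4.3.3, two-sided, with Benjamini-Hochberg adjustment over 22864 genes and a threshold of 0.05. It was tested on simulated data.

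The members and lists were chosen with earlier results of these data known. Named members are those past the threshold, up to 12 a direction, or else the 3 of smallest p. The related-cue, effector and marker lists were tested in the same fit and counted over all their genes tested. Only some list genes past the threshold are named. Alternatives were quantile and median scaling, normexp background (offset 50, on the median signal, since no mean signal was given), the filter (none, or 8 arrays), the mean of a gene's probes, every probe, fits of only the compared groups, the replicate number as a block, each array left out, and the authors' table. With both arrays that stand apart left out is an alternative chosen after seeing the data. The number of arrays limits the precision. Python 3.11.15, pandas 2.3.3 and matplotlib 3.10.9 were used.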

Additional observations from a re-analysis of the deposited data

Results flagged for a closer look

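In 8 of 197 groups of 4 arrays, 1 array lay far from the other 3 by Dixon's test, and chance alone gives about 1 in 20, or 9.85. On GREmx1-cre replicate 1, Efna2 was at -0.186 (others -3.37 to -3.18), Epha6 at -2.54 (others -3.29 to -3.21), Epha8 at -7.15 (others -5.60 to -5.32) and Plxna2 at 2.52 (others 2.43). On GREmx1-cre replicate 4, Ephb6 was at 0.479 (others 0.345 to 0.362) and Plxnb2 at 1.80 (others 1.52 to 1.55). On MREmx1-cre replicate 1, Epha5 was at 2.07 (others 1.90 to 1.91) and Sema4b at -5.49 (others -5.14 to -5.09). Of these genes, Ephb6 alone passed the test in a comparison with its own group.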

How the results depend on the processing

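Under every alternative and whichever array was left out, 3 of 15 member calls held in MREmx1-cre against dflox (Plxna1, Robo3, Slit2), 6 of 21 in GRMREmx1-cre against dflox (Plxnd1, Robo3, Sema4g, Slit1, Slit2, Unc5c), 9 of 20 in GRMREmx1-cre against GREmx1-cre, 6 of 17 in MREmx1-cre against GREmx1-cre and 0 of 2 in GREmx1-cre against dflox hippocampus. No alternative read a gene's second probe alone, and the direction of Plxna1 stays uncertain because its probes disagree. Of 82 named differences, all 82 kept direction and side of the threshold with the authors' table, with every probe tested and with the 8-array filter. None of these could turn a direction. The authors' table holds the same values, and in the other 2 each named member was still read on its probe of highest mean. With no filter or with only 2 groups in the fit the direction was fixed as well, and only the side of the threshold could move. Quantile scaling kept 78, the replicate block 72, the mean of probes 67, no filter 66, median scaling 62, both arrays that stand apart left out 59, only 2 groups in the fit 53 (26 lost the call) and normexp 40.

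Members called were as follows where they moved by over 1.5 times. In GREmx1-cre against dflox they were 1 with median scaling, the mean of probes, 2 groups in the fit or both arrays that stand apart left out, and 0 with normexp. In MREmx1-cre against dflox they were 4 with normexp and 8 with 2 groups, in GRMREmx1-cre against dflox and against GREmx1-cre 37 with normexp each, and in GRMREmx1-cre against MREmx1-cre 1 with quantile scaling, median scaling or both arrays left out and 30 with normexp. In each of these GRMREmx1-cre comparisons, the share of the 66 members past the test with normexp was below that of all 22864 genes. In MREmx1-cre against GREmx1-cre the members called were 6 with normexp, 11 with 2 groups and 8 with both arrays left out. Over all genes the counts were, in GREmx1-cre against dflox, 467 with quantile scaling, 440 with median scaling, 13 with normexp, 471 with no filter, 346 with 2 groups and 414 with both arrays left out. They were 1029 with median scaling, 102 with normexp and 695 with 2 groups in MREmx1-cre against dflox, 14109 with normexp in GRMREmx1-cre against dflox, 14028 with normexp in GRMREmx1-cre against GREmx1-cre, and 13608 with normexp and 420 with 2 groups in GRMREmx1-cre against MREmx1-cre. In MREmx1-cre against GREmx1-cre they were 172 with normexp, 1238 with 2 groups and 1104 with both arrays left out, and for the interaction 182 with median scaling, 0 with normexp, 138 with no filter and 178 with both arrays left out. Genes higher and lower numbered 518 and 203 in GREmx1-cre against dflox (263 and 204 with quantile, 247 and 193 with median scaling), 962 and 595 in MREmx1-cre (524 and 505 with median scaling) and 2610 and 1106 in GRMREmx1-cre (1539 and 1712 with median scaling).

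With 1 array left out, members and genes called ranged over 0 to 2 and 268 to 783 in GREmx1-cre, 9 to 14 and 1013 to 1591 in MREmx1-cre, and 15 to 23 and 2265 to 3897 in GRMREmx1-cre against dflox. They ranged over 17 to 22 and 2079 to 3789 in GRMREmx1-cre against GREmx1-cre, 0 to 1 and 230 to 757 in GRMREmx1-cre against MREmx1-cre, 10 to 17 and 1438 to 2139 in MREmx1-cre against GREmx1-cre, and 0 to 2 and 83 to 434 for the interaction. The sign turned for Plxna4 with the mean of probes (-0.30 in MREmx1-cre against dflox, -0.40 in MREmx1-cre against GREmx1-cre) and with normexp (-0.064 in GRMREmx1-cre against dflox), and for Epha10 with normexp (0.49 in GRMREmx1-cre against dflox, 0.62 against GREmx1-cre). The Plxna4 mean leaves out the bright probe on MREmx1-cre replicate 1, whose spot was dropped, so that it averages the 2 dim probes on that array, and each of the 3 probes alone was higher in MREmx1-cre than in dflox hippocampus (0.27, 0.18 and 0.12). Normexp moved the median of all genes by 0.412 and 0.414 in these 2 comparisons, and relative to that shift 12 of 21 and 14 of 20 member calls kept their sign. The other causes were not tested.

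The replicate number is also the position on the slide. In 21 same-number pairs the correlation of deviations had a median of 0.0737 (-0.026 to 0.194, 6 over 0.1), against a median of -0.0232 in 63 pairs of different number (1 over 0.1), and 7 of 15 arrays correlated best with their own number in every other group. Taking each array with each other group, the best correlate had the same number in 30 of 42 cases. Not every pair was over 0.1 and the labels tie the number to nothing shared, so the samples were not treated as paired, and an effect of position was not excluded. With the replicate number as a block, members called were 2, 14, 20, 18, 0, 17 and 0, and genes 929, 1833, 3833, 3651, 801, 2412 and 307, for GREmx1-cre, MREmx1-cre and GRMREmx1-cre against dflox, GRMREmx1-cre against GREmx1-cre and MREmx1-cre, MREmx1-cre against GREmx1-cre, and the interaction. Signal over background limits Ntn4, Epha8, Sema3d and Ntn1.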
